A study of Mus musculus with 12 samples.

Results

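The genes described here encode the protein components of the cytosolic ribosome in the mouse striatum. They were chosen by symbol: protein-coding genes named Rpl or Rps followed by a digit, together with Rplp0, Rplp1, Rplp2 and Rpsa, without the ribosomal S6 kinases and without pseudogenes, and with at least 10 counts in 3 or more libraries. Of 392 annotated symbols with such a name, 296 were pseudogenes and 10 were kinases. Of the 86 protein-coding candidates, 83 met the count rule and 3 did not, so the set holds 83 of the 54532 genes in each table. It has 49 large subunit and 34 small subunit symbols. The rule also takes in 6 genes that are not core ribosome components, namely the paralogs Rpl3l, Rpl7l1, Rpl22l1 and Rps27l, the retrogene Rps27rt, and Rps19bp1, which encodes a binding partner of the small subunit protein RPS19. The other 77 are core genes. The core genes Fau and Rack1 carry other names and are described beside the set.

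The 12 polyA+ RNA libraries came from striatum of C57BL/6J mice and formed 4 groups of 3 by title. The 3d-SN011 and SN011 groups both had transient middle cerebral artery occlusion, a stroke model in which the artery that feeds the striatum is blocked and reopened, and both received SN-011, a small molecule that blocks STING, the adaptor through which cytosolic DNA sets off interferon signalling. The vehicle group had the same occlusion with PBS, and the sham group had a sham operation with PBS. The labels do not say what 3d stands for, and they give no age, sex or count of animals per library. The prefix occurs in no vehicle or sham title, so SN-011 and the meaning of 3d cannot be told apart in the 3d-SN011 group. Replicates are separate samples by title, and the p-values measure the spread between them, which may be in part technical.

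A ribosome is built from a large and a small subunit, each an assembly of ribosomal RNA and many small proteins made in matched amounts. Ribosomal protein mRNAs are among the most abundant of any cell. Most begin with a C followed by a run of pyrimidines, the terminal oligopyrimidine or TOP motif, through which mTORC1 and the RNA-binding protein LARP1 set how strongly they are translated. Free ribosomal proteins left over from assembly, RPL5 and RPL11 in particular, bind MDM2 and so bear on p53. In the brain, neurons and glia hold different amounts of ribosomes, and activated and dividing cells make more of them.

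Start-site sequence was available for 63 of the 83 genes in the RefSeq promoter table (GRCm38.p6), as windows of 300 bases from 250 before to 50 after each start. A run of at least 8 C or T on the gene strand, between 50 bases before and 50 after the start, was found in 49 of the 63 (77.8%), against 35.7% of all 27025 promoters. On the opposite strand the same search found a run in 23.8% of the 63 and in 37.2% of all promoters. The stretches below run from 40 bases before to 30 after the RefSeq start, and capitals mark each run of at least 8 C or T on the printed strand. They are shown because they span the range of response in the comparisons that follow: first the genes that rose most among those with an entry, then Rplp2 and Rps6, close to the upper and the lower quartile of the set, then Rpl13a, Rpl22l1, Rps19bp1 and Rpl3l, which were not called higher.
Rplp0: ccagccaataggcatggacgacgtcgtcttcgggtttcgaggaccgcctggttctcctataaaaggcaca
Rps27l: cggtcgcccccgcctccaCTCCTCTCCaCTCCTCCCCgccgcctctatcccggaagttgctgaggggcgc
Rpl18: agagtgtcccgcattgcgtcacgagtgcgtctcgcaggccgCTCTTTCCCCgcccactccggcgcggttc
Rps12: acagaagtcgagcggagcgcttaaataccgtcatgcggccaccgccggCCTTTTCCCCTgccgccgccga
Rpl35: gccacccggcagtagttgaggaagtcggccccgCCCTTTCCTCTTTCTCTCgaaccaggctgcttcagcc
Rplp2: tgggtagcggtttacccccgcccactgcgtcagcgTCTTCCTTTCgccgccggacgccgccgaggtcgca
Rps6: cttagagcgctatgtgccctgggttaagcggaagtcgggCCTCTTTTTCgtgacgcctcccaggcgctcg
Rpl13a: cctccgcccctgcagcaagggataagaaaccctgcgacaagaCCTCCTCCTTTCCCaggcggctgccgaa
Rpl22l1: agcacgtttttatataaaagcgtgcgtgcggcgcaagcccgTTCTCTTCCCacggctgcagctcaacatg
Rps19bp1: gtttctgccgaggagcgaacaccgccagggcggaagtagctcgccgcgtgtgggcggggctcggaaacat
Rpl3l: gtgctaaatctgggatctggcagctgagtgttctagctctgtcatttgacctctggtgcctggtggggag

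These stretches lie at chr5:115559427-115559496 on the plus strand for Rplp0, chr9:66946046-66946115 plus for Rps27l, chr7:45718031-45718100 plus for Rpl18, chr10:23787180-23787249 minus for Rps12, chr2:39005102-39005171 minus for Rpl35, chr7:141447611-141447680 plus for Rplp2, chr4:86857338-86857407 minus for Rps6, chr7:45128716-45128785 minus for Rpl13a, chr3:28805468-28805537 plus for Rpl22l1, chr15:80264277-80264346 minus for Rps19bp1 and chr17:24727786-24727855 plus for Rpl3l. The longest run in the Rpl35 stretch was 18 pyrimidines and in the Rpl13a stretch 14, while the Rplp0 stretch reached 7 and those of Rps19bp1 and Rpl3l reached 5. A long run was therefore present in a gene that rose steeply and in a gene that did not pass the test. The latter, Rpl13a, had low counts, and other annotated genes covered 35.4% of its exon bases. Its lack of a call therefore says little about the run. Over the whole windows, CTCTTTC occurred on either strand in 27.0% of the 63 promoters and 8.01% of all, and CCGGAAG, the core of an ETS-type element, in 38.1% and 9.12%. CACGTG, the E-box bound by MYC, occurred in 7.94% and 7.24%, and TATAAA on either strand in 9.52% and 14.2%. CTCTTTC can itself lie inside a pyrimidine run, so those counts overlap. A match describes the letters only and shows no bound factor.

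The libraries held 15806076 to 18622053 counts each, of which mitochondrially encoded genes took 3.77% to 6.82%, and 18537 genes passed the filter on low counts, all 83 ribosomal protein genes among them. A gene is called higher or lower here at a Benjamini-Hochberg adjusted p under 0.05 in edgeR's quasi-likelihood test, fitted on all 12 libraries and adjusted over all genes tested. Levels are CPM, read counts scaled to a common library size by the TMM method, given ± SD over the 3 libraries of a group, and log2 fold changes are given ± SE. Vehicle libraries, although labelled as occlusion, had 0 genes called against sham in this fit, with 2.52% of genes at an unadjusted p under 0.05 (edgeR). An edgeR fit of just the 6 vehicle and sham libraries called 12 genes higher and 4 lower, and DESeq2 called 5 higher and 0 lower. None of these was a ribosomal protein gene. The 13 markers of striatal projection neurons, the main cells of the labelled tissue, summed to 517 to 2646 CPM in 3d-SN011, 6047 to 10590 CPM in SN011, 10218 to 10827 CPM in vehicle and 10130 to 10830 CPM in sham libraries. They were present in every library and lowest in the 3d-SN011 group.

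Ribosomal protein genes took about double the share of counts in 3d-SN011 libraries that they took elsewhere. The share was 2.23%, 1.87% and 2.04% in the 3d-SN011 libraries, 1.12%, 0.941% and 1.29% in the SN011 libraries, 0.986%, 0.819% and 0.962% in the vehicle libraries, and 0.967%, 0.884% and 0.936% in the sham libraries. Each 3d-SN011 library stood above all 9 others, and the remaining groups overlapped. The means were 2.05% ± 0.182, 1.12% ± 0.173, 0.923% ± 0.0902 and 0.929% ± 0.0421 in that order (SD, n = 3 each). Counting error is small beside this spread, since the exact 95% binomial interval of the lowest 3d-SN011 share ran from 1.86% to 1.88%, though reads without molecular identifiers are not independent molecules. In bulk tissue, fewer cells of a type and less RNA per cell cannot be told apart.

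**Figure D1:**
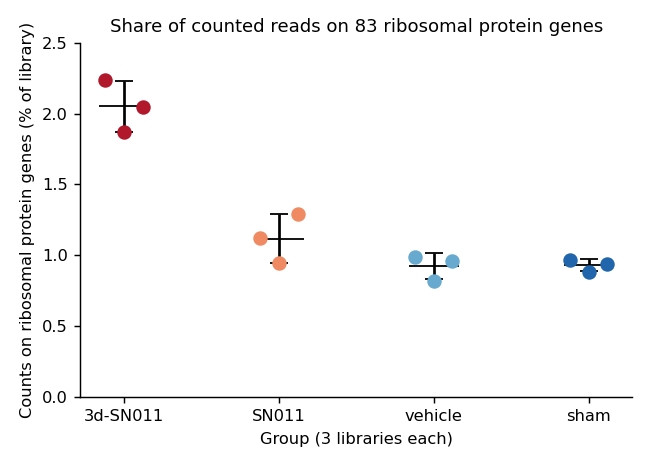
Share of each library's counts that fell on the 83 ribosomal protein genes (y axis, percent), by group (x axis, 3 libraries each); points are libraries, the long bar is the mean and the whiskers are 1 SD. The 3d-SN011 libraries lie at 1.87% to 2.23%, above the 0.819% to 1.29% of the other 9.

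The same order held gene by gene. In each library the median over the 83 genes of log2 CPM minus the sham mean was 1.08, 0.80 and 0.99 in 3d-SN011, 0.20, -0.019 and 0.30 in SN011, 0.061, -0.21 and 0.011 in vehicle, and 0.054, -0.063 and 0.0022 in sham. Replicates 1 and 3 of SN011 lay above every vehicle and sham library and replicate 2 did not. For 75 of the 83 genes, all 3 3d-SN011 libraries exceeded all 9 others, as they did for 21.4% of all genes tested. The 8 exceptions were Rpl22l1, Rpl13a, Rps10, Rpl24, Rps27, Rps27rt, Rps19bp1 and Rpl3l.

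**Figure D2:**
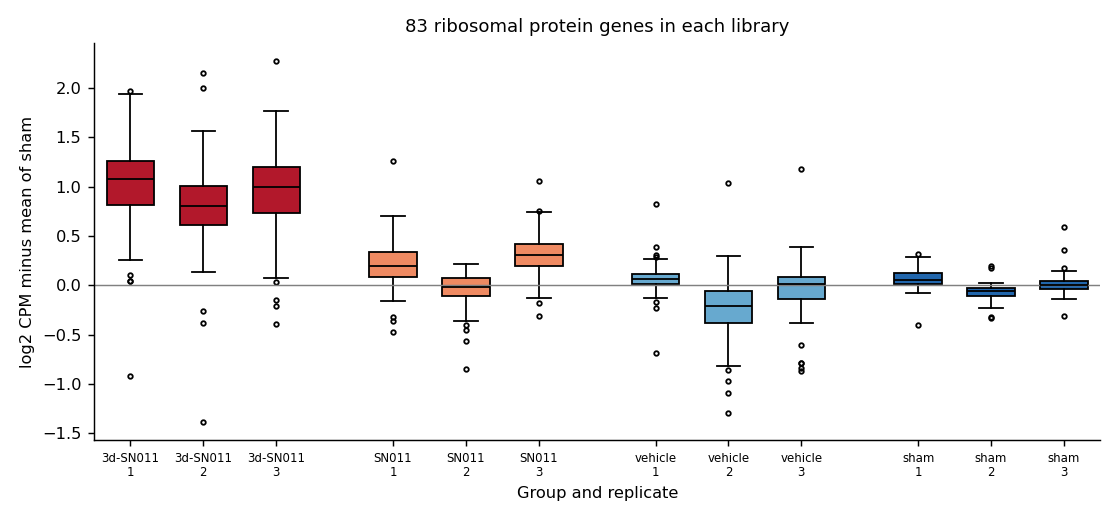
Log2 CPM of each of the 83 genes minus its mean over the sham libraries (y axis), in each of the 12 libraries (x axis); boxes span the quartiles with the median as a line, whiskers reach 1.5 times the box height, and circles are genes beyond them. The 3d-SN011 boxes are centred between 0.80 and 1.08, and the other medians lie between -0.21 and 0.30.

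Between 3d-SN011 and vehicle libraries, 76 of the 83 genes were called higher and 1 was called lower, where the background was 28.9% of all genes tested called higher and 28.2% called lower. The median log2 fold change of the 83 was 1.03, with quartiles of 0.85 and 1.20, beside a median of 0.0093 for all genes tested. A fold of 2 or more was reached by 45 genes. Large and small subunit genes had nearly the same median, 1.03 and 1.02, so the response was spread evenly over both subunits. Of the 77 core genes, 74 were called higher and 0 lower, the other 3 being Rpl13a, Rpl24 and Rps10. The groups did not overlap, with 3d-SN011 above, for 76 genes, against 29.5% of all genes.

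Against sham the picture was similar, with 74 genes called higher and 0 lower, at backgrounds of 29.8% and 27.9%, and a median log2 fold change of 0.98. Against SN011, which carries the same treatment label, 76 were called higher and 0 lower, at backgrounds of 23.6% and 22.9%, and the median was 0.76. At an unadjusted p under 0.05 in either direction there were 75 against sham and 77 against SN011, where 62.5% and 54% of all genes were (edgeR), and DESeq2 also called 0 lower in both. The groups did not overlap, with 3d-SN011 above, for 77 genes against sham and 76 against SN011, beside 31.8% and 24.6% of all genes. These 3 comparisons share the 3d-SN011 libraries, so they are given side by side and not as separate support.

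**Figure D3:**
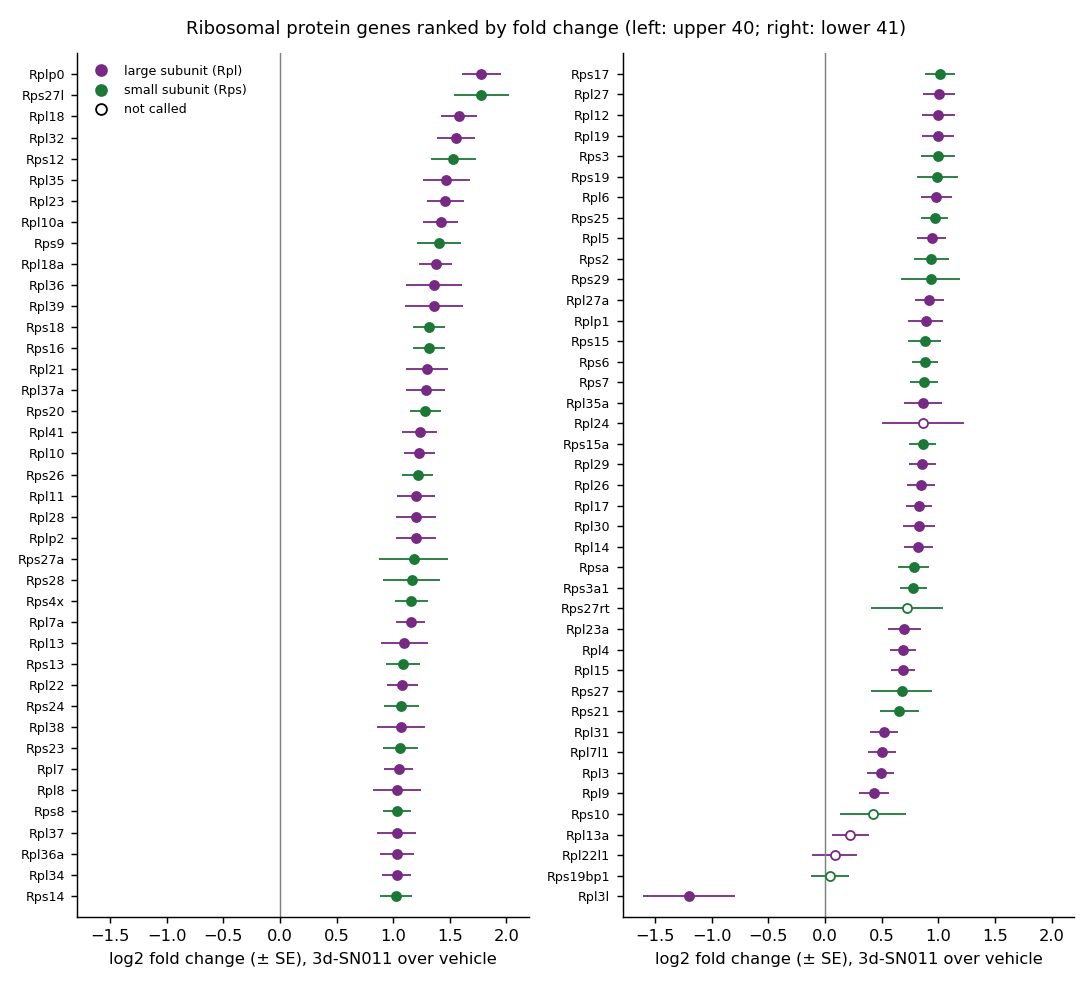
Log2 fold change of 3d-SN011 over vehicle (x axis) for 81 of the 83 genes, ranked from the highest (top left) to the lowest (bottom right); bars are 1 SE, colours mark the subunit, and open circles are genes with an adjusted p of 0.05 or more. Most values lie between 0.5 and 1.5, from 1.78 for Rplp0 to -1.20 for Rpl3l.

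The ribosomal stalk gene Rplp0 had the highest log2 fold change over vehicle, level with Rps27l, while Rps27a and Rps27l lay above it against sham, at 2.03 and 1.94 beside 1.77, and against SN011. Rplp0 (ENSMUSG00000067274, chr5:115559467-115563727, plus strand, GRCm38) encodes the base of the stalk on the large subunit that recruits translation factors, and RPLP1 and RPLP2 are the paired acidic proteins anchored on it. Rplp0 had 669, 504 and 582 CPM in 3d-SN011, 217, 182 and 288 CPM in SN011, 184, 154 and 174 CPM in vehicle, and 170, 169 and 175 CPM in sham libraries. The 3d-SN011 values were higher than all others by a wide margin, and vehicle and sham overlapped. The log2 fold change over vehicle was 1.78 ± 0.17 (SE, adjusted p = 1.37e-05, edgeR), a 3.43-fold difference, and over SN011 it was 1.35 ± 0.17 (adjusted p = 0.000138).

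Its partners moved less. Rplp1 averaged 557 ± 94.8 CPM in 3d-SN011 and 301 ± 41.7 CPM in vehicle libraries, a log2 fold change of 0.89 ± 0.16 (adjusted p = 0.000402, edgeR). Rplp2 averaged 177 ± 36.6 CPM and 76.8 ± 14.0 CPM in the same groups, a log2 fold change of 1.20 ± 0.18 (adjusted p = 0.000115). The ratio of Rplp0 to Rplp1 counts was 1.05, 1.12 and 1.00 in 3d-SN011, 0.540, 0.558 and 0.776 in SN011, 0.603, 0.597 and 0.512 in vehicle, and 0.514, 0.565 and 0.597 in sham libraries. The 3d-SN011 ratios did not overlap those of any other group, and the other groups overlapped one another. An exact two-sided permutation test of 3 against 3 libraries gave p = 0.1 against vehicle and against SN011, which is the smallest p that such a design allows, and 0.1 and 0.114 after adjustment over the 8 ratios computed. Rplp0 over Rplp2 was 3.35 ± 0.306, 2.28 ± 0.436, 2.26 ± 0.314 and 2.20 ± 0.278 in 3d-SN011, SN011, vehicle and sham (SD, n = 3 each).

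**Figure D4:**
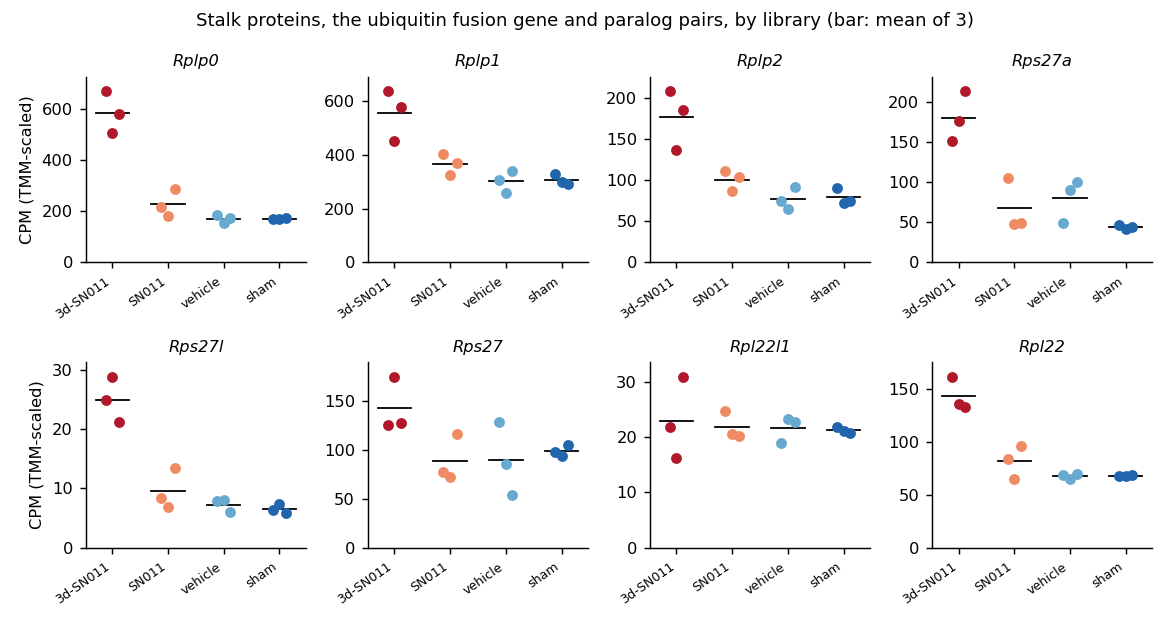
TMM-scaled CPM (y axes, from 0) of the stalk genes, the ubiquitin fusion gene Rps27a and the pairs Rps27l with Rps27 and Rpl22l1 with Rpl22, by group (x axis); points are libraries and bars are means of 3. Rplp0 and Rps27l stand well above the other groups in 3d-SN011 libraries, Rps27 and Rps27a spread widely within groups, and Rpl22l1 does not separate the groups while Rpl22 does.

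The core genes named next, which followed Rplp0 over vehicle, encode large subunit proteins apart from Rps12. Rpl18 had 247, 176 and 222 CPM in 3d-SN011, 100, 81.0 and 118 CPM in SN011, 72.8, 62.9 and 79.3 CPM in vehicle, and 72.9, 69.3 and 69.2 CPM in sham libraries. The 3d-SN011 values lay above all others, and SN011 values, although lower, also lay above all vehicle and sham values. Its log2 fold change over vehicle was 1.58 ± 0.16 (adjusted p = 1.54e-05, edgeR). Rpl32, Rps12, Rpl35, Rpl23 and Rpl10a followed at 1.55, 1.53, 1.47, 1.46 and 1.42, with adjusted p-values from 1.83e-05 to 8.2e-05 (edgeR). RPL10A is the large subunit protein used as the tag in translating ribosome purification, and RPL23 is among the proteins known to bind MDM2. Among the highest 8 against SN011 were Rps27a, Rps27l, Rplp0, Rpl39, Rpl32, Rpl18 and Rpl10a, from 1.42 down to 1.08 on the log2 scale.

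Rps27a encodes a fusion of ubiquitin with a small subunit protein. It had 151, 177 and 213 CPM in 3d-SN011, 105, 48.0 and 49.3 CPM in SN011, 48.8, 90.3 and 100 CPM in vehicle, and 47.2, 41.4 and 44.0 CPM in sham libraries. The 3d-SN011 libraries were highest, and replicate 1 of SN011 and replicates 2 and 3 of vehicle lay well above the rest of their groups. The log2 fold change was 1.18 ± 0.30 over vehicle and 1.42 ± 0.31 over SN011 (adjusted p = 0.00515 and 0.00251, edgeR). Rps27a and Rpl13a were the 2 genes with vehicle above sham without overlap, where 6.86% of all genes were, and neither was called.

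Members with known signalling roles moved with the bulk of the set. Rps6, whose phosphorylation is the usual readout of mTORC1 activity, averaged 323 ± 23.3 CPM in 3d-SN011, 194 ± 17.8 CPM in SN011, 176 ± 15.6 CPM in vehicle and 183 ± 6.04 CPM in sham libraries, a log2 fold change over vehicle of 0.88 ± 0.12 (adjusted p = 5.17e-05, edgeR). Rpl5 and Rpl11, which with the smallest ribosomal RNA form the particle that binds MDM2, had log2 fold changes of 0.94 ± 0.12 and 1.20 ± 0.17 (adjusted p = 5.44e-05 and 7.76e-05). Rpsa, also known as a laminin receptor, rose by 0.78 ± 0.14 log2 units (adjusted p = 0.000351). All 4 were also called higher against SN011 and against sham.

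Members of several paralog pairs differed in their fold changes. Rps27l is a p53-inducible paralog of Rps27. Rps27l had 24.9, 28.9 and 21.2 CPM in 3d-SN011, 8.32, 6.79 and 13.5 CPM in SN011, 7.81, 8.0 and 6.05 CPM in vehicle, and 6.31, 7.33 and 5.93 CPM in sham libraries. The 3d-SN011 values stood above all others, with replicate 3 of SN011 next. Its log2 fold change was 1.78 ± 0.24 over vehicle (adjusted p = 6.34e-05, edgeR) and 1.39 ± 0.24 over SN011 (adjusted p = 0.000656). Rps27 had 126, 175 and 127 CPM in 3d-SN011 and 129, 85.4 and 54.0 CPM in vehicle libraries, which overlap. Its log2 fold change was 0.68 ± 0.27 (adjusted p = 0.0461, edgeR). This call was lost when any of replicate 2 of 3d-SN011, replicate 2 or 3 of vehicle, or any sham library was left out. It was also lost with the 6 libraries alone, with a replicate block, and with GC and length offsets. The ratio of Rps27l to Rps27 counts was 0.176 ± 0.0186 in 3d-SN011, 0.106 ± 0.0109 in SN011, 0.0888 ± 0.0260 in vehicle and 0.0665 ± 0.0113 in sham libraries (SD, n = 3 each; exact two-sided permutation p = 0.1 for 3d-SN011 against vehicle, the smallest possible). Of the 75-base windows of Rps27, 98.5% also occur in other annotated genes, and of Rps27l 12%, so the Rps27 counts are the less certain of the pair.

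Rpl22l1, a paralog of Rpl22 that can replace it in the large subunit, had 21.9, 16.3 and 31.0 CPM in 3d-SN011, 24.8, 20.6 and 20.2 CPM in SN011, 18.9, 23.4 and 22.8 CPM in vehicle, and 21.9, 21.2 and 20.7 CPM in sham libraries. The groups overlapped, and the 3d-SN011 libraries spread on both sides of the rest. Its log2 fold change was 0.086 ± 0.20 over vehicle (adjusted p = 0.726, edgeR), while that of Rpl22 was 1.08 ± 0.14 (adjusted p = 3.77e-05). The count ratio Rpl22l1 over Rpl22 was 0.163 ± 0.0615 in 3d-SN011 and 0.320 ± 0.0410 in vehicle libraries (SD, n = 3 each; exact permutation p = 0.1), and it was 0.274 ± 0.0564 in SN011, with an exact p of 0.2 for 3d-SN011 against SN011.

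Rpl7l1, a nucleolar relative of Rpl7, rose by 0.50 ± 0.12 log2 units, beside 1.05 ± 0.13 for Rpl7 (adjusted p = 0.00393 and 3.07e-05, edgeR). Rps19bp1 averaged 9.93 ± 1.07 CPM in 3d-SN011 and 9.64 ± 1.20 CPM in vehicle libraries, a log2 fold change of 0.043 ± 0.17 (adjusted p = 0.841), beside 0.99 ± 0.18 for Rps19 (adjusted p = 0.000539).

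Rpl3l, the paralog of Rpl3 used in heart and skeletal muscle, was the single gene called lower. Its counts were 8, 6 and 11 in 3d-SN011, 17, 12 and 15 in SN011, 22, 13 and 12 in vehicle, and 16, 11 and 12 in sham libraries. Most of these were close to the 10 counts of the rule. The 3d-SN011 counts were lowest as a group, though the 11 of its replicate 3 equalled sham replicate 2. At this depth a few reads decide the value. The log2 fold change over vehicle was -1.20 ± 0.41 (adjusted p = 0.0228, edgeR). The call was lost with no filter, with the 6 libraries alone, and without replicate 1 or 2 of 3d-SN011 or replicate 1 of vehicle, at adjusted p-values of 0.0584 to 0.112. Rpl3 itself rose by 0.49 ± 0.12 log2 units (adjusted p = 0.00325), among the smaller values of the core genes, and with GC and length offsets it had 0.14 and was not called (adjusted p = 0.32). Over vehicle the paralogs Rpl22l1, Rpl7l1 and Rpl3l thus had a smaller value than Rpl22, Rpl7 and Rpl3, and Rps27l had a larger one than Rps27.

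Just outside the count rule, Rpl39l, the testis-type paralog of Rpl39, had 13, 11 and 9 counts in 3d-SN011, 2, 0 and 1 in SN011, 1, 0 and 4 in vehicle, and 0, 0 and 0 in sham libraries. Rpl39 rose by 1.36 ± 0.26 log2 units (adjusted p = 0.00064, edgeR). Rpl36al had 61 counts over all libraries, and Rpl10l had 0.

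The 3 core genes that were not called shared a feature of the annotation. Rpl24, Rps10 and Rpl13a had the lowest levels per length of the core genes in sham libraries, 3.10, 3.21 and 11 CPM per kilobase, where Rplp1 had 616. Other annotated genes covered 47.0% of the exon bases of Rpl24, 28.7% of Rps10 and 35.4% of Rpl13a. In the GENCODE M21 annotation of GRCm38 each has a partner on its own strand that extends beyond it, Gm28037, RPS10-NUDT3 and Gm45713 in that order, and each partner was listed at 0 counts in every library. Rpl35 and Rpl23a were overlapped over 66.2% and 62.3% of their exon bases, mainly by genes on the opposite strand, and were called higher. How reads on shared exons were counted is not given in the sources used here, and its part in the low levels was not tested. Rpl13a had 14.7, 15.3 and 12.2 CPM in 3d-SN011, 14.8, 11.9 and 10.5 CPM in SN011, 11.9, 11.8 and 12.5 CPM in vehicle, and 11.6, 11.4 and 11.6 CPM in sham libraries. These overlap between 3d-SN011 and vehicle, with a log2 fold change of 0.22 ± 0.16 (adjusted p = 0.248, edgeR). Rps10 and Rpl24 had log2 fold changes of 0.42 ± 0.29 and 0.86 ± 0.36 (adjusted p = 0.232 and 0.0583).

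Among the rest, the most abundant members per length in sham libraries were Rplp1 at 616 CPM per kilobase and Rps15, Rpl26, Rpl13, Rpl41, Rps27, Rpl3, Rps14, Rpl31 and Rpl9, from 321 down to 253 CPM per kilobase. Within the set, the size of the rise bore little relation to abundance, transcript length, GC content or shared sequence. Across the 83 genes, Spearman's rho of the log2 fold change over vehicle was -0.072 with sham level, -0.071 with transcript length, 0.028 with GC content and -0.097 with the share of sequence that recurs in other genes. These are descriptions across genes of the same libraries, which are not independent replicates. The members are short, with a median transcript length of 774 bases beside 2869.5 for all tested protein-coding genes. Correlations within the set therefore cannot show an effect of length common to its genes. With GC and length offsets the median log2 fold change was 0.77 over vehicle, beside -0.073 for all genes, and 0.68 over sham. Genes with and without a pyrimidine run near the start had medians of 1.00 (49 genes) and 1.00 (14 genes). The run could lie anywhere in the window searched, so this split does not tell TOP mRNAs from others. Rpl3l, at -1.20, fell among the genes with a run, and Rplp0, at 1.78, among those without. No conclusion on the TOP motif is drawn from these medians.

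Ribosomal protein genes have many processed pseudogenes with near-identical sequence, so their counts depend on how reads with several matches were treated, which is not given in the sources used here. At least 1 window of 75 bases recurred in another annotated gene for 79 of the 83, and over 50% of windows recurred for 41. Over vehicle, the median log2 fold change was 1.05 for the 18 genes with under 25% of windows shared, with 16 called higher, and 1.01 for the 19 genes with over 75% shared, with 17 called higher. Rps3, which shares no window with another gene, rose by 1.00 ± 0.15 log2 units (adjusted p = 0.000111, edgeR), near the median of the set. Rps19bp1 and Rpl3l, described above, also had no shared window.

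The remaining comparisons gave no call in the set. Between SN011 and vehicle, 0 of the 83 genes were called in either direction, where 0.0108% of all genes were called higher and 0.00539% lower. At an unadjusted p under 0.05 there were 16, or 19.3% of the set, against 11.1% of all genes, and DESeq2 called 0 of the set while calling 426 genes higher and 17 lower over the whole table. The median log2 fold change was 0.22 beside -0.0077 for all genes, and 78 of the 83 values were above 0 where 48.8% of all genes were. The smallest adjusted p was 0.262, for Rpl18 at 0.48 ± 0.16. The groups did not overlap, with SN011 above, for 10 genes, among them Rps16, Rpl18 and Rpl23, against 9.01% of all genes. Without replicate 2 of SN011 the median was 0.31, without replicate 3 of SN011 it was 0.13 and without replicate 2 of vehicle 0.15, so the size of the shift depended on single libraries. With GC and length offsets it was 0.10, beside -0.083 for all genes.

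Between SN011 and sham, 0 genes of the set were called, at backgrounds of 0.113% higher and 0% lower. The median was 0.18, with 9 genes at an unadjusted p under 0.05 (edgeR; 12.8% of all genes), and DESeq2 called 0. It was 0.024 with GC and length offsets, beside -0.083 for all genes, 0.097 without replicate 3 of SN011 and 0.27 without replicate 2. SN011 lay above sham without overlap for 12 genes, again beside 12.8% of all genes. Between vehicle and sham the median was -0.038, running from -0.083 to 0.027 as single libraries were left out, with the highest value without replicate 2 of vehicle. Of the set 0 were called, at backgrounds of 0% higher and 0% lower, with 2 genes at an unadjusted p under 0.05 and 0 called by DESeq2. SN011 and vehicle are each set against sham here, so these values share their controls.

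Other genes of translation are read against the same backgrounds over vehicle, 28.9% of all genes called higher and 28.2% called lower. Of 3 core ribosomal genes outside the name rule, 2 were called higher. Fau and Rack1 rose by 1.57 ± 0.24 and 1.24 ± 0.14 log2 units over vehicle (adjusted p = 0.000154 and 2.31e-05, edgeR). Of 14 other genes with TOP mRNAs, 10 were called higher and 1 lower, with a median of 0.69. Tpt1, which encodes the growth-related protein TCTP, rose by 1.57 ± 0.18 log2 units (adjusted p = 2.16e-05), and Vim, the intermediate filament of reactive glia, rose by 5.20 ± 0.64 log2 units (adjusted p = 3.24e-05).

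Of 36 initiation factors, 15 (41.7%) were called higher and 4 (11.1%) lower, with a median of 0.17. Pabpc1, the poly(A)-binding protein, and Eif3f, a subunit of the largest initiation complex, rose by 1.15 ± 0.16 and 0.94 ± 0.14 log2 units (adjusted p = 6.28e-05 and 9.22e-05, edgeR), and the helicase gene Eif4a2 fell by 0.89 log2 units, with an SE of 0.15 (adjusted p = 0.000234). Of 13 elongation and release factors, 6 were called higher and 3 lower, with a median of 0.24. Eef1a2, the elongation factor isoform of mature neurons and muscle, had 197, 248 and 312 CPM in 3d-SN011, 829, 847 and 532 CPM in SN011, 840, 796 and 903 CPM in vehicle, and 875, 926 and 881 CPM in sham libraries. It was lowest in 3d-SN011, and its log2 fold change over vehicle was -1.75 ± 0.20 (adjusted p = 2.38e-05). Eef1a1, the widely expressed isoform, chosen after its values were seen, rose by 0.87 ± 0.16 log2 units (adjusted p = 0.00046), so the pair moved in opposite directions. Eef1b2 and Eef2k, the exchange factor and the kinase of elongation, rose by 0.85 ± 0.11 and 0.98 ± 0.13 log2 units (adjusted p = 4.37e-05 and 5.48e-05).

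Ribosome biogenesis genes, which act in making new ribosomes, had a median of -0.13. Of 58 tested, 9 (15.5%) were called higher and 19 (32.8%) lower, the lower share being close to the 28.2% of all genes. Tsr1 and Rrp12, both small subunit assembly factors, fell by 1.08 and 0.94 log2 units, each with an SE of 0.12 (adjusted p = 1.85e-05 and 3.83e-05, edgeR), and the nucleolar helicase gene Ddx21 rose by 0.76 ± 0.11 log2 units (adjusted p = 0.000113). Of 77 mitochondrial ribosomal protein genes tested, 13 (16.9%) were called higher and 7 (9.09%) lower, with a median of 0.032, close to the 0.0093 of all genes. Mrps6 and Mrpl34 rose by 1.83 ± 0.34 and 0.84 ± 0.14 log2 units (adjusted p = 0.000589 and 0.000289), and Mrpl3 fell by 0.60 log2 units, with an SE of 0.11 (adjusted p = 0.000559). The cytosolic ribosomal protein median of 1.03 thus stood beside medians near 0 for the mitochondrial ribosome and for ribosome assembly.

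**Figure D5:**
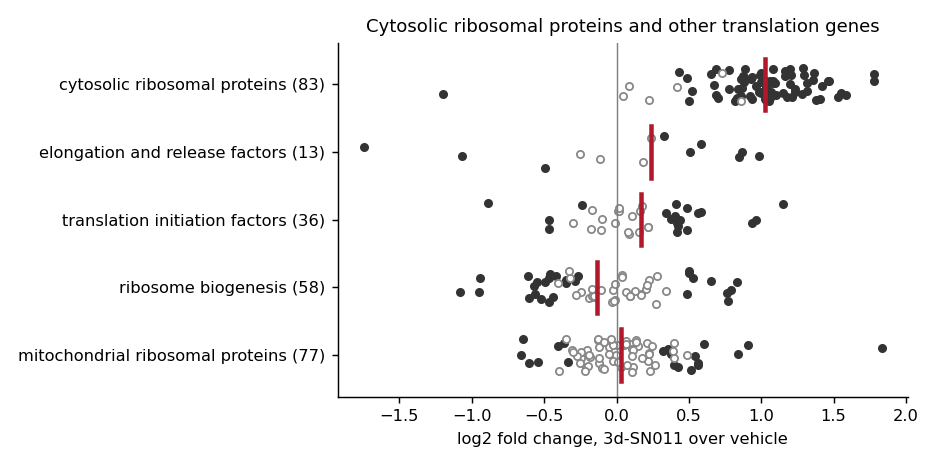
Log2 fold change of 3d-SN011 over vehicle (x axis) for cytosolic ribosomal protein genes and 4 other groups of translation genes (rows, number tested in brackets); points are genes, filled where the adjusted p is under 0.05, and red bars are medians. The ribosomal proteins centre on 1.03 and the other medians lie between -0.13 and 0.24.

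Of 32 genes of mTORC1 signalling and TOP mRNA control, 13 (40.6%) were called higher and 8 (25%) lower, beside 28.9% and 28.2% of all genes, with a median of 0.023. Myc, a transcription factor known to drive ribosome production, had a log2 fold change of 1.90 ± 0.22, and Eif4ebp1, an mTORC1 target that restrains initiation, 2.70 ± 0.33 (adjusted p = 2.2e-05 and 3.15e-05, edgeR). Rragd, which encodes a GTPase of the lysosomal amino acid sensing branch, fell by 1.82 log2 units, with an SE of 0.25 (adjusted p = 6.41e-05). Of 20 genes of the integrated stress response, which lowers translation, 10 (50%) were called higher and 3 (15%) lower, with a median of 0.36. Its named members differed in direction: the amino acid transporter gene Slc3a2 rose by 1.33 ± 0.14 log2 units, while Asns, asparagine synthetase, and Vldlr fell by 1.78 and 1.21 log2 units, with SEs of 0.20 and 0.13 (adjusted p from 1.58e-05 to 2.31e-05).

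Of 10 genes of the p53 axis, 7 were called higher and 1 lower, with a median of 0.95. Bax and Phlda3, p53 targets in cell death and survival signalling, rose by 1.05 ± 0.11 and 1.92 ± 0.25 log2 units (adjusted p = 1.88e-05 and 4.22e-05, edgeR), and Zmat3, another p53 target, fell by 1.03 log2 units, with an SE of 0.12 (adjusted p = 2.38e-05). Of 13 genes of ribosome rescue and quality control in the tables, 2 were called higher and 6 lower, with a median of -0.16. Ltn1, the ligase that marks stalled nascent chains, fell by 1.10 log2 units, with an SE of 0.15, and Usp10, a ribosome deubiquitinase, by 0.44, with an SE of 0.11 (adjusted p = 5.62e-05 and 0.0034). Map3k20, the kinase that responds to collided ribosomes, rose by 0.77 ± 0.20 log2 units (adjusted p = 0.00506).

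Cell type markers moved in the same libraries. The 16 microglia and macrophage markers summed to 7585 to 10394 CPM in 3d-SN011, 892 to 3324 CPM in SN011, 537 to 662 CPM in vehicle and 543 to 603 CPM in sham libraries, and all 16 were called higher over vehicle. The 10 markers of dividing cells summed to 308 to 475, 108 to 203, 92.3 to 108 and 78.7 to 94.1 CPM in those groups, and all 10 were called higher over vehicle. The 3d-SN011 libraries were therefore high in both, as they were in ribosomal proteins.

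All 13 projection neuron markers and all 11 general neuron markers were called lower over vehicle, the general ones at sums of 1040 to 1863, 3364 to 5107, 5117 to 5405 and 5154 to 5810 CPM in 3d-SN011, SN011, vehicle and sham. Astrocyte markers summed to 11216 to 16183, 5380 to 9691, 4665 to 5090 and 5049 to 5275 CPM, with 8 of 9 called higher over vehicle. Glial and dividing-cell markers were thus high, and neuronal markers low, where ribosomal protein genes were high, and their part in the result was not tested.

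Oligodendrocyte markers had 6 of 8 called higher over vehicle, with sums of 15697 to 24512, 8641 to 12759, 9051 to 11160 and 9566 to 12227 CPM in the 4 groups in that order. Oligodendrocyte precursor markers had 6 of 6 called higher, at 734 to 1053, 503 to 700, 386 to 500.1 and 471 to 507 CPM. Endothelial and mural markers had 6 of 9 called higher, at 579 to 1006, 481 to 534, 465 to 490.3 and 570.0 to 596 CPM. The median log2 fold changes of these 3 lists over vehicle were 0.74, 1.06 and 0.70, beside 4.20 for the microglial list.

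Infiltrating leukocyte markers, 14 genes of which 9 were tested, had 6 called higher and 1 lower, with a median log2 fold change of 2.91 over vehicle. The sums over all 14 were 81.4 to 139, 95.6 to 113, 88.3 to 112 and 90.3 to 105 CPM. Cd4 was the most abundant gene in these sums, which therefore say little about the less abundant markers. The neutrophil marker Ly6g was at 0 in every SN011 and sham library, the T cell marker Cd3e in every sham library and the NK cell marker Nkg7 in every vehicle library. Choroid plexus and ependymal markers summed to 138 to 867, 1076 to 3028, 1347 to 2719 and 136 to 2519 CPM, with 3 of 7 called higher and 3 lower, and they varied most within the sham group. Microglial markers in SN011 libraries also lay above vehicle and sham, at 892 to 3324 CPM, in the group whose ribosomal protein median stood at 0.22 over vehicle. Of these 16 markers, 0 were called higher in SN011 over vehicle, at a median log2 fold change of 1.83, and 2 over sham. The contribution of any of these lists to the ribosomal protein values was not tested.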

How the data were processed

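Per the labels' protocols, Trizol was used for extraction, and the polyA+ libraries were read as pairs. HISAT2 and featureCounts on mm10 are named in the submitters' processing notes; versions, annotation, strand and treatment of reads with several matches were not given in the sources used here. Raw read counts were deposited, as whole numbers by Ensembl gene with no sign of normalization. Symbols, positions and lengths were taken from GENCODE M21 (GRCm38) for 54495 of 54532 genes.

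Genes were kept by filterByExpr (minimum count 10), which left 18537. TMM scaling was used, and edgeR 4.0.16 (R 4.3.3) fitted the 12 libraries by group in 1 quasi-likelihood model. A gene was called at an adjusted p under 0.05 over all genes. CPM values are TMM-scaled, and CPM per kilobase divides by the length of 1 coding transcript per gene. Shared sequence was measured as 75-base windows found in other annotated transcripts, and exact two-sided permutation tests were used for ratios of counts. The members, gene lists and tests were chosen with earlier results of these data known. Named genes were the 8 highest and 8 lowest members over vehicle and over SN011, the most and least abundant, paralogs, stalk and signalling members, and the 3 called genes of each list with the smallest adjusted p; the text says where a gene was chosen otherwise. On simulated data with known folds in a small part of the genes the fit was checked. That check does not cover a comparison in which a large share of genes differ, such as 3d-SN011 over vehicle. Replicates differed beyond sampling noise, and none was treated as a duplicate. Alternatives were RLE scaling, TMM without the members, DESeq2 1.42.0, no filter, a fit of just the 6 libraries compared, a replicate block, offsets for GC content and length, mitochondrial genes left out, and leaving out each library. Protein sequences were not used here. A few genes are not reported here by name and are left out of the ranked plot.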

Additional observations from a re-analysis of the deposited data

Results flagged for a closer look

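Reads on annotated pseudogenes of the family, which no comparison above uses, stood higher in 3d-SN011 libraries than in the controls. They were 446 ± 64.3 CPM (of all counts in a library) in 3d-SN011, 249 ± 33.4 in SN011, 204 ± 13.7 in vehicle and 204 ± 17.6 in sham libraries (SD, n = 3 each). They came to 2.00 to 2.32 per 100 counts on the members in every library, so counts on the pseudogenes and on the genes kept nearly the same proportion. The treatment of reads with several matches is not given. Reads of the pseudogenes therefore cannot be told apart from reads of the genes that landed on near-identical copies. Of the 294 pseudogenes, which were taken by a symbol with -ps, 188 had any count.

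Rpl39l, which the count rule left out, had 33 reads summed over the 3d-SN011 libraries, 3 over SN011, 5 over vehicle and 0 over sham. Every 3d-SN011 library, with 9 to 13 reads, lay above the 0 to 4 reads of every other library. The difference was not tested.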

How the results depend on the processing

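Over RLE scaling, TMM without the members, DESeq2, no filter, the 6 libraries alone, the replicate block, GC and length offsets and leaving out each library, 68 to 78 members were called higher in the 3 comparisons of 3d-SN011, and 0 called members reversed. Leaving out each library gave 74 to 77 members called higher over vehicle, 70 to 75 over sham and 71 to 76 over SN011, and 0 to 1 called lower in each. The medians then ran from 0.92 to 1.08, 0.90 to 1.03 and 0.68 to 0.86, and those of SN011 over vehicle, SN011 over sham and vehicle over sham from 0.13 to 0.31, 0.097 to 0.27 and -0.083 to 0.027. SN011 over sham had 0 to 1 called higher, Rpl18 without SN011 replicate 2. GC and length offsets lowered the median to 0.77 over vehicle, 0.68 over sham and 0.024 for SN011 over sham, with 2 members called lower over sham and 1 over SN011; they moved the median of all genes over vehicle to -0.073. Members called lower over vehicle were 0 with no filter and 0 with the 6 libraries alone. Without mitochondrial genes the sham share was 0.989%. Among uncalled values, the sign changed for Rps19bp1 (-0.39 with offsets, and -0.045 to 0.15 over libraries left out, with -0.024 among them), Rpl13a (-0.19 with offsets), Rpl22l1 (-0.19 to 0.28 over libraries left out, and -0.0034 among them) and, over SN011, Rps27rt (-0.051 to 0.35 over libraries left out, with -0.047 and -0.024 among them). DESeq2 called 426 genes higher and 17 lower for SN011 over vehicle, where edgeR called 2 and 1, and 606 and 32 for SN011 over sham, where edgeR called 21 and 0, with 0 members in each. The edgeR counts also depended on the setting. For SN011 over vehicle it called 587 higher and 14 lower with no filter, and 512 and 9 without SN011 replicate 2. For SN011 over sham it called 748 and 27 with no filter, and 670 and 33 without SN011 replicate 2. The cause of these differences was not tested. Replicate numbers did not pair the samples (correlations of deviations -0.293 to 0.143); with the replicate block 76, 74 and 75 members were called higher over vehicle, sham and SN011, and Rps27 was not called over vehicle or SN011. Depth limits what can be said of Rpl3l and, outside the set, of Rpl39l, Rpl36al and Rpl10l.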
